A study of Mus musculus with 4 samples.

Results

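The 10 genes described here encode the proteins of the basement membrane and 2 proteins that handle its collagen. They are the laminin chains Lama1, Lama5 and Lamc1, the collagen IV chains Col4a1 and Col4a2, the nidogens Nid1 and Nid2, the heparan sulfate proteoglycan perlecan (Hspg2), the collagen-binding protein Sparc and the collagen chaperone Serpinh1. They were chosen by symbol from the 22718 genes of the RNA-seq tables. No measured value entered the rule, but the choice was made with earlier results of these data known. All 10 had a read count and a finite RPKM (the reads per kilobase of gene, scaled to the size of the library, which is a level per length) in both libraries.

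The RNA-seq compared mouse ES cells (embryonic stem cells, pluripotent and derived from the blastocyst) of 2 genotypes: a wild type line and a Prep1-/- line. Both were labelled C57BL/6, and the study's methods state that they were grown on gelatin with serum and leukemia inhibitory factor, and that the Prep1-/- cells were the KO2 line. Each genotype was 1 line with 1 library, so no difference below has a replicate check and no test was made. The peaks of the Prep1 protein came from a ChIP-seq library of wild type ES cells set against input DNA. Its strain label is also C57BL/6, while its protocol names R1 ES cells.

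Basement membranes are thin sheets of matrix under epithelia. Laminin trimers of an alpha, a beta and a gamma chain form one network on the cell surface, trimers of collagen IV chains form another, and nidogens and perlecan bind to both. In the early mouse embryo the primitive endoderm and the parietal endoderm derived from it are known for making this matrix, and in cultures of ES cells a laminin-rich layer forms under the endoderm of embryoid bodies.

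Of 29596294 wild type reads 155662 (0.526%) fell on the 10 genes, and of 25717811 reads in the library labelled Prep1-/- it was 129772 (0.505%). Their RPKM summed to 1091.5 and 966. Both library totals are well above the number of reads per sample that the study's methods state. The source of that difference is not known, so the counting intervals below may be too narrow. The targeted gene Pknox1, which encodes Prep1, kept part of its reads. Its RPKM was 7.85 (505 reads) in wild type cells and 5.78 (332 reads) in the library labelled Prep1-/-. These reads count RNA and not protein, and the paper's western blots found KO2 cells to lack the protein. The second library is named by its label throughout. The 12 ES cell markers that were looked at all had RPKM above 1 in both libraries, and Pou5f1 (Oct4) stood at 323 and 360. Their median ratio, as defined below, was 1.28, with 11 of 12 counting intervals above 1. Of the 12, 1 was called higher, Klf4 at 1.58, beside 7.2% of all genes.

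Below, a KO/WT ratio sets the RPKM in the library labelled Prep1-/- over that in wild type cells. The interval in brackets is the exact 95% (Clopper-Pearson) interval of the share of a gene's reads that fell in that library, put on the scale of the ratio. Where the level of a gene is set over that of another, the interval is instead a Woolf interval, a normal approximation on the log scale. It uses the read counts of both genes in both libraries. Both kinds of interval cover counting error only, and since reads are not independent molecules the true error is larger. A gene was called lower with a ratio below 0.7 and a wild type RPKM above 1, and higher with a ratio above 1.5 where the RPKM in the library labelled Prep1-/- exceeded 1.

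Col4a1, Col4a2 and Serpinh1 were called lower, Nid2 was called higher, and Lama1, Lama5, Lamc1, Nid1, Hspg2 and Sparc were in neither class. Of all genes above the same RPKM minimum, 13.8% were called lower and 7.2% higher. The median KO/WT ratio of the 10 genes was 0.965 (log2 -0.05), and that of the 13218 expressed genes, those above an RPKM of 1 in each library, was 0.955 (log2 -0.07). The median of the list thus lay next to that of all genes, and its members spread to both sides. The counting interval lay below 1 for 6 of the 10 genes and above 1 for the other 4, but counting error is small at this depth. Among the 3579 genes with at least as many reads as Lama1, the least read of the 10, the interval lay below 1 for 47.5% and above 1 for 30.9%.

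**Figure D1:**
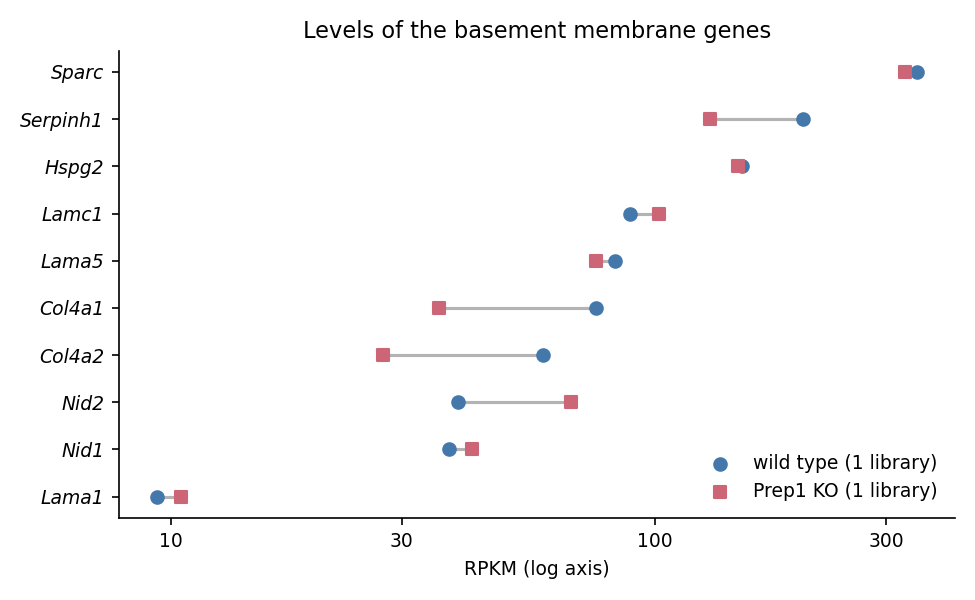
RPKM (log axis) of each of the 10 genes in wild type cells (circles) and in the library labelled Prep1-/- (squares), 1 library each, joined by a line. The pair Col4a1 and Col4a2 moved below Nid1 and Nid2 in the library labelled Prep1-/-, while Sparc, Hspg2 and Lamc1 kept levels close to those of the wild type library.

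None of the laminin chains of this list was called in either direction. Lama5 (chr2:179911078-179960564 of mm9, minus strand), the alpha chain of laminins on which ES cells are often grown, had 29364 wild type reads and 23966 in the library labelled Prep1-/-, with RPKM values of 82.6 and 75.4. Its ratio was 0.913 (0.897 to 0.928). Lama1 (chr17:68046605-68171985, plus strand), the alpha chain of a laminin that the early embryo makes, was the lowest of the 10 genes, with 1928 and 1937 reads and RPKM values of 9.34 and 10.5. Its ratio was 1.12 (1.05 to 1.20). Lamc1 (chr1:155066052-155179916, minus strand), the gamma chain shared by both of these laminins, had 17883 and 18385 reads and RPKM values of 88.7 and 102, a ratio of 1.15 (1.13 to 1.17). These ratios stood at the percentiles 41.3, 78.9 and 81.5 of all expressed genes, for Lama5, Lama1 and Lamc1 in that order.

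Lama5 made up most of the alpha chain RNA. Its share of the summed RPKM of the 5 alpha chain genes was 87.6% in wild type cells and 83.8% in the library labelled Prep1-/-, and the sum was 94.3 and 89.9. Lama1 held 9.90% and 11.7%. The level of Lama5 over that of Lama1 went from 8.84 to 7.18, a change by 0.812 (0.761 to 0.867) that was larger than counting error. Lama3, a chain of epithelial laminins outside the list, was the alpha chain with the highest ratio among those with at least 100 reads, at 1.80 (1.58 to 2.05) with 390 and 628 reads.

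The beta chains, none of which is among the 10 genes, all had ratios below 1. Lamb1-1, the symbol in the files for the laminin beta 1 chain that pairs with Lamc1, had 5840 and 4341 reads and a ratio of 0.831 (0.799 to 0.865). Lamb2 and Lamb3 were called lower, at 0.677 and 0.612. The summed RPKM of the beta chains was 60.1 and 47.2. The level of Lamc1 over that of Lamb1-1 went from 2.03 to 2.81, a change by 1.38 (1.32 to 1.45) that was larger than counting error.

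The lowest ratios of the 10 genes were those of collagen IV. Col4a1 and Col4a2 encode the chains of its common trimer, which holds more alpha 1 than alpha 2. Col4a1 had 9873 wild type reads and 4177 in the library labelled Prep1-/-, with RPKM values of 75.5 and 35.7 and a ratio of 0.473 (0.456 to 0.491). Col4a2 had 7265 and 3041 reads, with RPKM values of 58.7 and 27.5 and a ratio of 0.468 (0.448 to 0.488). The ratios stood at the percentiles 1.26 and 1.20 of all expressed genes, and both genes moved down in the order of levels, from the percentile 89.2 to 77.1 for Col4a1 and from 85.7 to 71.2 for Col4a2.

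The chains of the pair kept their proportion. The RPKM of Col4a1 over that of Col4a2 was 1.29 in wild type cells and 1.30 in the library labelled Prep1-/-, and the ratio of these values, 1.01 (0.956 to 1.07), did not differ from 1 beyond counting error. The other chains were scarce. Col4a5 had 243 and 190 reads with a ratio of 0.875 (0.719 to 1.06), while Col4a3, Col4a4 and Col4a6 had at most 44 reads in a library. Col4a1 and Col4a2 therefore held 55.6% and 43.2% of the collagen IV RPKM in the wild type library, and the sum over the 6 chains went from 136 to 64.5.

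Col4a1 and Col4a2 lie head to head on chromosome 8 and are transcribed away from a shared start. In the GENCODE M1 annotation of NCBIM37 (mm9), Col4a1 spans chr8:11198423-11312826 on the minus strand and Col4a2 spans chr8:11312805-11449287 on the plus strand, so that the spans share 22 bases. These bases, read on the plus strand, are shown because both genes begin in them.
Col4a1 and Col4a2 shared start, chr8:11312805-11312826: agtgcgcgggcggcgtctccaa
The RNA kit in the labels does not mark strand, while the paper speaks of transcripts detected from the sense strand. If strand was not kept, reads from these bases cannot be assigned to 1 of the genes. The bases are few beside the length of either transcript.

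Chromosome 8 had lower values as a whole in the library labelled Prep1-/-. Its 702 expressed genes had a median ratio of 0.779, while the medians of the 19 other chromosomes lay between 0.923 and 1.08. Against the chromosome 8 median the ratios of Col4a1 and Col4a2 were 0.607 and 0.601, below the threshold of 0.7. Among the 677 other expressed genes of the chromosome with a position in the annotation, 28.4% were called lower. The 13.8% of all genes is not quite alike, since it counts genes above the minimum in the wild type library, chromosome 8 included. Of the 679 genes counted with the pair, Col4a2 was the 25th and Col4a1 the 26th from the lowest ratio.

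The nearest genes were less low than the pair. Within 1 Mb of the shared start lay 6 other expressed genes, with a median ratio of 0.828, and 5 of them had ratios below 1. Irs2, an adaptor of the insulin receptor, was the lowest at 0.523 and was the only one called lower. Ing1 was the highest at 1.07. Divided by the median of these neighbours, a comparison chosen after seeing the data, the ratios of Col4a1 and Col4a2 were 0.571 and 0.565. With 1 line per genotype, what sets chromosome 8 apart between these lines and what is tied to the genotype cannot be told apart for the pair.

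**Figure D2:**
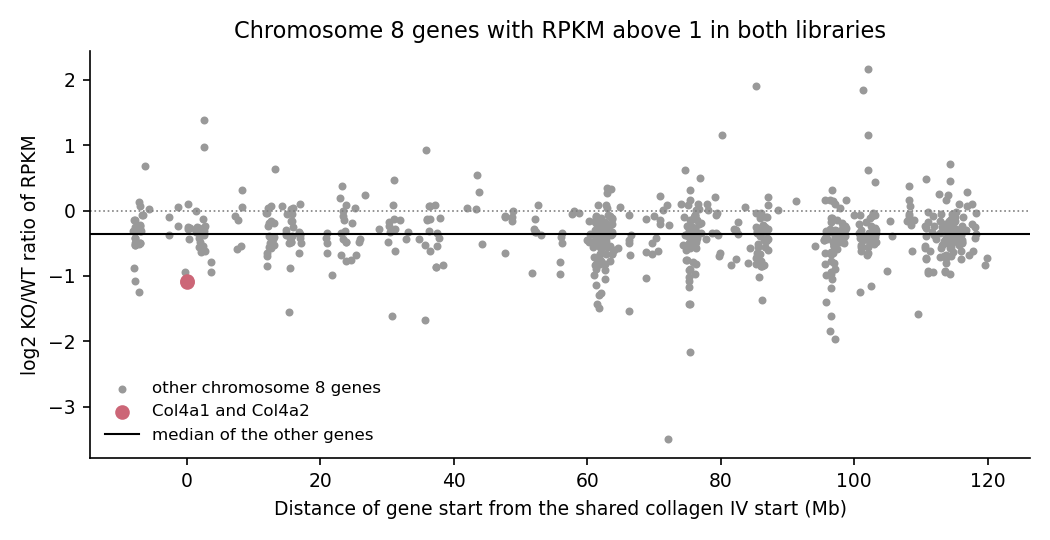
Log2 KO/WT ratio of the expressed chromosome 8 genes (grey) by the distance of their start from the start shared by Col4a1 and Col4a2 (red, overlying each other), in Mb. The black line marks the median of the other genes, log2 -0.36, and the pair lay at log2 -1.08 and -1.10.

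Serpinh1 encodes Hsp47, a chaperone of the endoplasmic reticulum that binds procollagens, collagen IV included. It spans chr7:106493885-106501740 on the minus strand. It had 11741 wild type reads and 6759 in the library labelled Prep1-/-, with RPKM values of 202 and 130.0 and a ratio of 0.644 (0.625 to 0.663). This ratio stood at the percentile 6.99 of expressed genes, and it was 0.697 when divided by the median of chromosome 7, just inside the threshold. Its ratio was nearer to 1 than those of collagen IV, and the level of Serpinh1 over that of Col4a1 went from 2.67 to 3.64, a change by 1.36 (1.30 to 1.43).

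The nidogens, rod-shaped glycoproteins that tie laminin to collagen IV, diverged. Nid1 (chr13:13529869-13604542, plus strand) had 5828 and 5820 reads with RPKM values of 37.4 and 41.8, a ratio of 1.12 (1.08 to 1.16). The description beside its identifier in the files is that of a predicted gene, while both the symbol in the files and GENCODE M1 give Nid1. Nid2 (chr14:20570479-20631009, plus strand) had 4858 wild type reads and 7461 in the library labelled Prep1-/-, with RPKM values of 39.1 and 67.1 and a ratio of 1.72 (1.66 to 1.78), at the percentile 97.3. The level of Nid2 over that of Nid1 was 1.04 in wild type cells, and it was 1.61 in the library labelled Prep1-/-. The ratio of these values, 1.54 (1.46 to 1.62), was larger than counting error. The sum of both nidogens went from 76.5 to 108.9.

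Hspg2 and Sparc were close to 1. Hspg2 (chr4:137024634-137126545, plus strand), whose core protein perlecan carries heparan sulfate chains, had the most reads of the list, 46833 and 41266, and RPKM values of 151 and 149. Its ratio was 0.985 (0.972 to 0.998), and it lay above 1, at 1.01 to 1.05, under the other scalings of the libraries. Sparc (chr11:55208002-55233582, minus strand), a matrix glycoprotein that binds collagens and is abundant in parietal endoderm, had the highest level of the list, with 20089 and 16960 reads and RPKM values of 347 and 328. Its ratio was 0.944 (0.925 to 0.964), and it stood at the percentile 98.7 of expressed genes in both libraries.

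**Figure D3:**
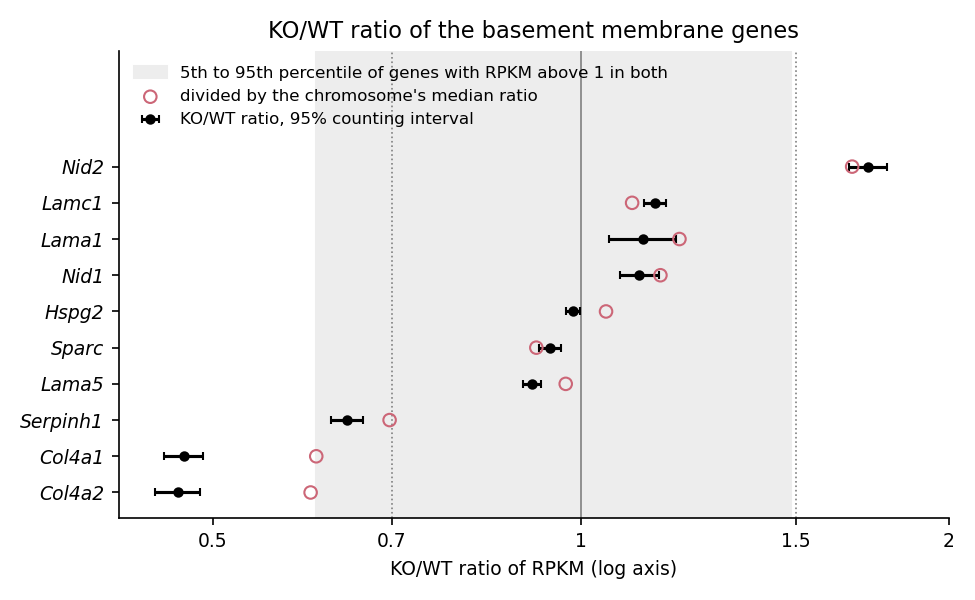
KO/WT ratio of RPKM (log axis) of the 10 genes with the exact 95% counting interval (black), and the ratio divided by the median of the gene's chromosome (open circles). Grey shading spans the 5th to 95th percentile of the 13218 expressed genes, 0.607 to 1.49, the dotted lines are the thresholds 0.7 and 1.5, and the points beyond the shading are Col4a1, Col4a2 and Nid2.

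In order of wild type level the genes were Sparc, Serpinh1, Hspg2, Lamc1, Lama5, Col4a1, Col4a2, Nid2, Nid1 and Lama1. In the library labelled Prep1-/- Hspg2 stood above Serpinh1, and both nidogens stood above both collagen IV chains. The level of Lamc1 over that of Col4a1 went from 1.17 to 2.85, a change by 2.43 (2.33 to 2.53). Lama5, Lama1 and Lamc1 had ratios from 0.913 to 1.15, whereas both collagen IV chains lay below 0.5.

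The other components of the basement membrane were looked at as a list of 30 genes, of which 18 had RPKM above 1 in either library. Of these, 7 were called lower and 1, Lama3, higher, beside 13.8% and 7.2% of all genes. The median ratio of the 17 above 1 in both libraries was 0.790, below the 0.965 of the 10 genes and the 0.955 of all expressed genes. The genes with the lowest ratios were Frem2 at 0.560, Lamb3 at 0.612 and Fbln2 at 0.626. Frem2 belongs with Fras1, also called lower at 0.650, to a complex under the epithelium of the embryo. Fras1 passed the RPKM minimum in the wild type library only, at 1.25 and 0.811. Tinagl (now Tinagl1), which binds laminin, was called lower at 0.685 with 2431 and 1488 reads, and Vwa1, which binds perlecan, at 0.697. Agrn, the proteoglycan agrin, had the highest wild type level of these genes, with 22095 and 15390 reads and a ratio of 0.779 (0.763 to 0.795). Col18a1, the core of another heparan sulfate proteoglycan, was near 1 at 0.972, and so was Ntn1 at 1.02. Pxdn, the peroxidase that crosslinks collagen IV, was at 0.782 (0.754 to 0.812).

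Of 17 cell receptors for the matrix with RPKM above 1, 2 were called lower and 0 higher, beside 13.8% and 7.2% of all genes, and the median of the list was 0.809. Itgb1, the beta 1 chain of the integrins that bind laminin and collagen, was called lower at 0.606 with 8089 and 4386 reads. It also lies on chromosome 8, and divided by the median of that chromosome its ratio was 0.778, above the threshold of 0.7. Itgb4, the partner of Itga6 in hemidesmosomes, was called lower at 0.683, while Itga6 itself was at 1.04. Itga3, a partner of Itgb1 that binds laminins with the Lama5 chain, had 54449 and 35430 reads and a ratio of 0.728. Dag1, which encodes dystroglycan, a receptor of laminin and perlecan, was at 0.961.

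Enzymes of collagen folding and crosslinking had a median ratio of 0.850 over 17 genes with RPKM above 1. Of these, 2 were called lower, Loxl4 at 0.545 and Fkbp10 at 0.698, and 0 higher, beside 13.8% and 7.2% of all genes. P4hb, a subunit of the prolyl hydroxylase, was at 0.942, Plod1, a lysyl hydroxylase, at 1.11 and Ppib, a proline isomerase, at 0.801. The ratio of Serpinh1, 0.644, was below that of each of these genes except Loxl4. Mia3, the exporter of large collagens, was not matched in the files and has no value here.

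Proteases and inhibitors of the matrix had a median ratio of 0.703 over 13 genes, the lowest among the lists of matrix genes and receptors. Of the 13 genes, 6 were called lower, beside 13.8% of all genes. They were Mmp9 at 0.500, Mmp2 at 0.574, Bmp1 at 0.642, Mmp15 at 0.682, Timp2 at 0.685 and Plau at 0.690. Mmp2 and Mmp15 lie on chromosome 8, and divided by its median their ratios were 0.738 and 0.875, above the threshold of 0.7. Mmp2 and Mmp9 are the gelatinases, which cut collagen IV. Htra1 had the highest ratio of the list at 1.32 and was not called.

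**Figure D4:**
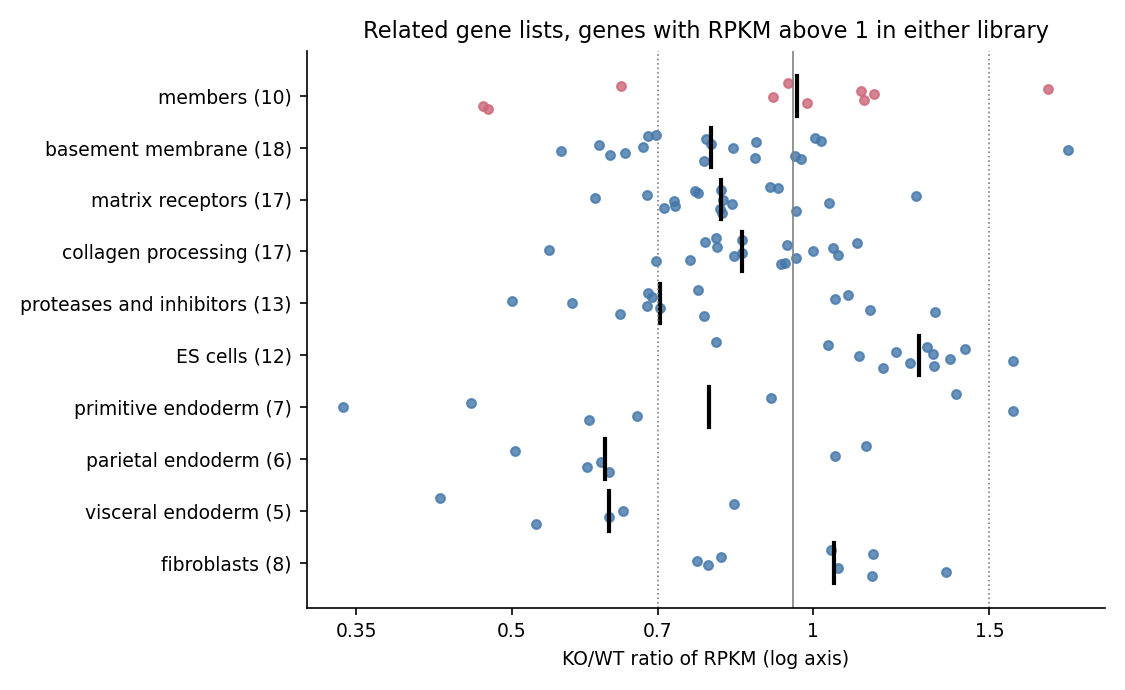
KO/WT ratio of RPKM (log axis) of single genes in each list, with the number of genes with RPKM above 1 in either library in brackets. Black bars are the list medians over genes above 1 in both libraries, the grey line is the median of all expressed genes, 0.955, and the dotted lines are the thresholds. The 10 basement membrane genes (red) spread from 0.468 to 1.72, and their median lies nearer to the grey line than that of any other list.

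Since the endoderm is the main source of this matrix in the embryo, the markers of its cells stand beside these values. Of 12 primitive endoderm markers 7 had RPKM above 1 in either library. Of these, 4 were called lower (Gata4, Gata6, Dab2 and Amn) and 1 higher (Fgfr2), beside 13.8% and 7.2% of all genes. Gata6 passed the RPKM minimum in the wild type library only, at 1.17 and 0.534. Gata4, a transcription factor of primitive endoderm, had 1156 and 350 reads and a ratio of 0.339 (0.300 to 0.382). Over all 12 markers 10 had ratios below 1, and their summed RPKM was 32.0 in wild type cells and 25.6 in the library labelled Prep1-/-. Lrp2 made up much of that sum, and without it the sum was 18 and 12.9. Among the defining markers Sox17 and Pdgfra were low in both libraries, with 49 and 18 reads for Sox17 and 38 and 10 for Pdgfra, and no marker of this list was at 0.

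Parietal endoderm markers had a summed RPKM of 862 and 559, and 4 of 6 with RPKM above 1 were called lower, beside 13.8% of all genes. Most of that sum came from the simple keratins Krt8 and Krt18, which other epithelial cells make too, and Plat stands in this list and in that of the proteases. Of the visceral endoderm markers 4 of 5 with RPKM above 1 were called lower, beside the same 13.8%. The list had a sum of 57.1 and 35.9, and Afp, a defining marker of these cells, had 1 and 6 reads. Markers of fibroblasts, which are used as feeder cells in other ES cultures, had none called in either direction among 8 with RPKM above 1, beside 13.8% and 7.2% of all genes. Their median ratio was 1.05 and the sum of the list 460 and 522. Most of that sum came from Fn1, at 290 and 333, and Acta2, at 123 and 140. Dcn, Lum and Postn, which fibroblasts make in quantity, had at most 33 reads in a library, with 6 and 33 for Postn. Collagen genes of the list were read more. Col1a1 had 976 and 1186 reads and a ratio of 1.36 (1.25 to 1.48), while Col5a1 had 1799 and 1263 and a ratio of 0.785 (0.730 to 0.844).

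Not all endoderm markers were lower, since Fgfr2 was called higher at 1.58, and Sox7 was at 1.39, Vim at 1.13 and Lrp2 at 0.907. For Fgfr2 the direction differs from the paper's RT-qPCR of ES cells and embryoid bodies, which reported reduced Fgfr2 RNA in Prep1 KO cells. The part of endoderm cells in the collagen IV, Serpinh1 and Nid2 values was not tested, and in bulk RNA fewer cells of a type and less RNA per cell cannot be told apart.

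Prep1 binding was compared through the 3902 peaks that the authors called in the ChIP library against input. The score of a peak is its fold enrichment over input, rounded to a whole number, with a median of 21 and a range of 4 to 336. A peak lay in the gene span or within 20 kb of it for 3 of the 10 genes, Lama5, Sparc and Nid2, and for 30.3% of all genes with RPKM above 1 in either library. A peak overlapped the span of 1 of the 10, Nid2, and of 15.7% of those genes. The count of the list is therefore near that of all genes.

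Nid2, the only gene called higher, was the only one with a peak inside its span. The peak lay in intron 3 at chr14:20584600-20585110, with its centre 14376 bases from the gene start. Its enrichment of 9 fold was at the percentile 3.05 of all peaks. A stronger peak, at 162 fold, lay 11494 bases past the end of Nid2 at chr14:20642503-20643564, over the start of the neighbouring gene 2700060E02Rik. The intronic peak held 2 matches to TGANTGACA, the decamer bound by Prep1 with its partner Pbx without its last base. The bases from the first match to the second, with 20 on either side, are shown with the matches in capitals. This peak is the closest to a gene of the list that was called, and binding at these letters was not tested.
Nid2 intron 3, chr14:20584809-20584957, plus strand: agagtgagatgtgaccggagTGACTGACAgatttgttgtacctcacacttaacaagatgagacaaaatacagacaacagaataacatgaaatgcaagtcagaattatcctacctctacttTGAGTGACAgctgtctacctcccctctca
On either strand TGANTGACA was found in 34.6% of all peaks, and at least 2 matches were found in 2.82%. These exact letters are a stricter measure than the paper's motif search, which accepted inexact matches and found the decamer in a larger share of the peaks. Windows of the same lengths 10 kb to the right of the peaks held it in 3.79%.

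Sparc had a peak of 43 fold 1348 bases past its end, at chr11:55205736-55206654, which covered no annotated gene start. It held no TGANTGACA and 1 match to TGANTGGCA, a form with G in place of A that was added to the search after seeing the data and was found in 15.0% of peaks and in 2.79% of the shifted windows. The match is shown in capitals with 20 bases on either side because this is the peak nearest to the most abundant gene of the list.
Sparc downstream peak, chr11:55206322-55206370, plus strand: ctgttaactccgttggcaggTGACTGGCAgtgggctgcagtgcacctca
Lama5 had a peak of 70 fold 4315 bases past its end at chr2:179905846-179906763, over the start of Adrm1, with no match to either form.

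None of the 3 genes called lower had a peak within 20 kb. The nearest to Col4a2 was at the start of Carkd, 47887 bases past its end and 13 fold over input, and no peak lay within 100 kb of the spans of Col4a1 or Serpinh1. Lama1 and Nid1 had none within 100 kb either. The nearest peak to Hspg2 was 22754 bases past its end, at the start of Usp48, and the nearest to Lamc1 was 76818 bases away. With a limit of 50 kb in place of 20 kb the count was 5 of 10, adding Col4a2 and Hspg2.

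**Figure D5:**
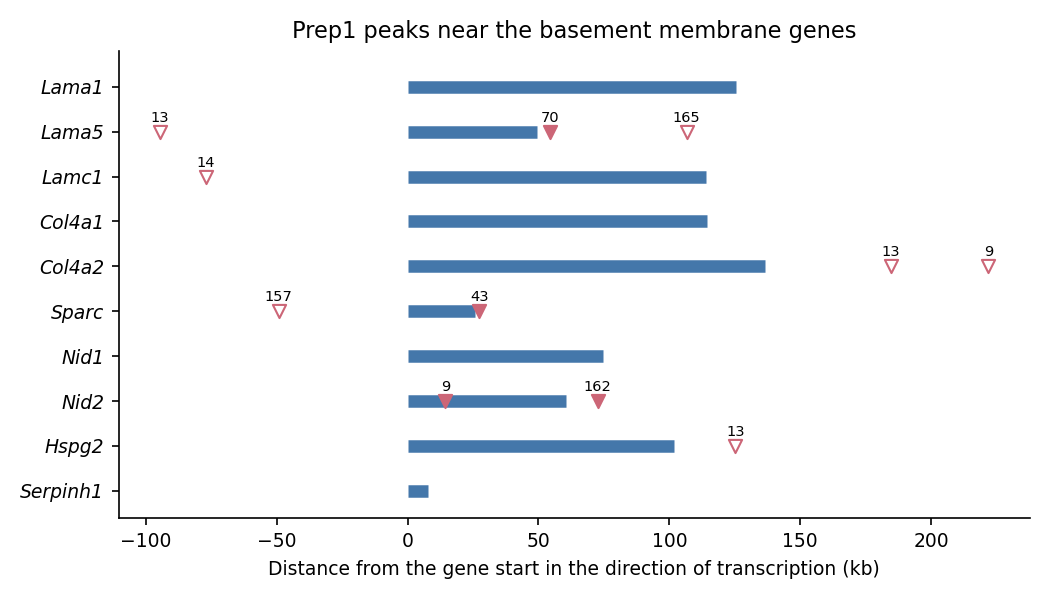
Prep1 peaks within 100 kb of the span of each gene (triangles, labelled with their fold enrichment over input) by distance from the gene start in the direction of transcription, in kb. Blue bars are the gene spans, filled triangles are peaks in the span or within 20 kb of it, and Lama1, Col4a1, Nid1 and Serpinh1 have none.

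Promoter sequences, 250 bases before to 50 bases after the start, were given in RefSeq (GRCm38.p6) for 7 of the 10 genes, all but Lama1, Lamc1 and Nid2. None held TGANTGACA, TGANTGGCA or TGATTNAT, the octamer bound by the related Meis proteins, in either orientation, and these were found in 1.93%, 1.49% and 3.22% of all 32851 promoters of that table. The letters GGGCGG, a GC box, were in 6 of the 7, all but Sparc, and in 35.7% of all promoters. The GC content of the 7 promoters was 55.3% to 74.0%, above the median of 52.7% over the table, and it was highest at the start shared by Col4a1 and Col4a2. These matches are descriptions of the letters in the window and not of binding.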

How the data were processed

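The RNA-seq files give, for each of 22718 genes, a read count and an RPKM value. The authors deposited the read counts as whole numbers without normalization, which per the methods came from RSEM with the Ensembl release 63 genes of mm9, followed by DESeq (versions not given). The deposited RPKM was made by the authors from the count plus 1, since the KO/WT ratio of RPKM over that of the counts plus 1 was 1.12 for every gene. It was infinite for 85 genes, which were left out. The deposited peak score is the fold enrichment that MACS gave after BWA alignment to mm9.

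The KO/WT ratio used RPKM without a pseudocount and the study's thresholds of 0.7 and 1.5. The RPKM minimum of 1 was applied to the wild type library for lower calls and to the library labelled Prep1-/- for higher calls. With 1 library per genotype no count test was possible. The 10 genes and all lists were chosen with earlier results of these data known. All 10 were named, and other lists were led by their lowest and highest ratios among genes with at least 100 reads in both libraries together. Coordinates follow GENCODE M1, which holds 21446 of the genes. The alternatives were other scalings, pseudocounts of 0.1 and 1, RPKM filters, thresholds and peak distances. Computations ran in Python 3.11.15 (pandas 2.3.3, numpy 2.4.6, scipy 1.17.1), and plots were drawn in matplotlib 3.10.9. The result of 1 further gene is not reported here.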

Additional observations from a re-analysis of the deposited data

How the results depend on the processing

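The calls of Col4a1, Col4a2 and Serpinh1 as lower and of Nid2 as higher were kept under the 3 other scalings, both pseudocounts and both RPKM filters. With thresholds of 0.5 and 2, 2 of the 10 genes (Col4a1 and Col4a2) were lower and 0 higher. The median log2 ratio of the 10 genes was -0.05, and it was 0.013 with the median of all expressed genes set to 1 and 0.014 with the median of each chromosome set to 1. The 7 other basement membrane genes called lower became 4 with either of these scalings, 3 with a pseudocount of 1, 12 without an RPKM filter, 3 with RPKM above 5, 4 with thresholds of 1/1.5 and 1.5, and 0 with 0.5 and 2. The 1 called higher became 4 without a filter, and 0 with RPKM above 5 or with 0.5 and 2. The 4 primitive endoderm markers called lower became 2 with a pseudocount of 1, 9 without a filter, 0 with RPKM above 5 and 2 with 0.5 and 2, and the 1 called higher became 0 with a pseudocount of 1, with RPKM above 5 and with 0.5 and 2. Genes with a Prep1 peak numbered 3, 5 with a limit of 50 kb, and 1, with peaks overlapping the span only, an alternative chosen after seeing the data. With 1 library per genotype the spread between cultures is unknown, and no replicate could be left out. No paired analysis was possible because each genotype has 1 library.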
